A study of Homo sapiens with 20 samples.

Results

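The guides described here are the targeting guides numbered up to 30000 in a pooled screen of HfCas13d, a high-fidelity form of the RNA-cutting enzyme Cas13d. They were taken by number: every guide whose ID begins with UID_ and whose number is 30000 or lower. The rule found 29968 guides among the 40070 of the screen's table, which also holds 9107 targeting guides with higher numbers and 995 non-targeting guides. Of the numbers up to 30000, 32 carry no guide. The border was chosen by a measured value, the change of each guide between day 0 and day 14, because losses and gains are rare below it. Values of that change are therefore given as a description of these guides, with calls listed and nothing supported by them. Levels at day 0 were not themselves used to place the border, but they enter the change and are not independent of it. The place of a guide in its set and the spread between libraries were not the value that placed it. The calls at day 14 serve only to list guides.

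The study counted guides in genomic DNA from pooled fitness screens of Cas13d enzymes, in 20 libraries of 4 screens. The guides described here are in 1 of those screens, with 3 libraries at day 0 and 3 at day 14. The host was HAP1, a near-haploid human line that derives from a chronic myelogenous leukaemia. All 6 libraries come from HAP1 cells with a doxycycline-inducible, nucleus-directed HfCas13d that had received the guide library by lentivirus at a low multiplicity of infection and had been selected with puromycin. The day 0 libraries are the input, and the day 14 libraries were taken after culture with doxycycline, puromycin and blasticidin. The labels describe the replicates as separate infections. They also give a batch that has the same value for all libraries of a day, so batch and day cannot be told apart.

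Cas13d is guided by a short CRISPR RNA and cuts RNA that pairs with the guide's spacer, which lowers the target transcript without changing the genome. Once bound to a target, wild-type Cas13d can also cut bystander RNA, and high-fidelity forms were engineered to do less of this. In a pooled fitness screen each cell carries a guide in its DNA. Guides that slow growth become a smaller share of the pool with time, and guides that speed growth become a larger share. Non-targeting guides, which match no transcript by design, serve as the reference for no effect. The table used here gives each guide a number with neither spacer sequence nor target gene, so single guides and groups of guides are given by number. The numbers were read in runs of 8 (1 to 8, 9 to 16 and so on), here called sets. The labels do not describe such runs, which were inferred from the data. There were 3750 sets up to 30000, of which 3718 held 8 guides and 32 held 7.

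The unit of the table is a normalised signal per guide, and reads could be worked back from it because the values of a library lie on a grid of equal steps that starts at 1. In the order of replicates 1 to 3, the day 0 libraries held 7196215, 7755380 and 9122431 reads, against 6987973, 8313186 and 14338227 for day 14. The guides up to 30000 took between 75.05% and 75.49% of the reads in every library. Their median was 178, 191 and 225 reads at day 0 and 172, 205 and 355 reads at day 14. No guide of the range was without reads. The lowest guide had 41, 44 and 53 reads in the day 0 libraries, and the lowest had 18, 22 and 30 reads at day 14.

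At day 0 the guides up to 30000 lay close together in abundance. Their median signal was 223.7, 222.0 and 215.6 in replicates 1 to 3. The tenth and ninetieth percentiles were 153.6 and 303.7 in replicate 1, 152.6 and 304.2 in replicate 2, and 152.7 and 289.1 in replicate 3. The upper of these values was 1.98, 1.99 and 1.89 times the lower. Single guides ran from a signal of 51.56 to one of 565.7 over the 3 libraries. The pool was therefore fairly even at day 0, and no guide was near a count of 0.

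At day 0 the guides up to 30000 had the same median log2 signal as those above, with a difference of 0 in each of the 3 libraries. The medians are whole reads that tie, and the exact two-sided sign-flip permutation p of 1 follows from the ties and shows nothing of the rest of the distributions. With means in place of medians the difference was 0.00732. Against the non-targeting guides, the guides up to 30000 stood higher at day 0 by 0.18, 0.176 and 0.134 on the log2 scale in replicates 1 to 3. The mean of these differences was 0.163 ± 0.026 (SD, n = 3, exact two-sided permutation p = 0.25, the smallest that 3 libraries can give). All 3 libraries showed that direction, but they carry the same guide pool, so their spread does not speak of another pool. Targeting guides above 30000, with the same medians, stood higher than the non-targeting guides too. The non-targeting guides had median signals of 197.4, 196.6 and 196.6.

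Counting error was not the whole of the spread between libraries. The SD of a guide's log2 signal between the 3 day 0 libraries was 0.165 over the guides up to 30000, where counting alone gives 0.106. Reads came from PCR for which the labels name no molecular identifiers, so this figure covers counting error only. At day 14 the SD was 0.224, where counting alone gives 0.1. The spread was 1.55 times the counting error at day 0 and 2.23 times at day 14. Non-targeting guides had SDs of 0.171 and 0.238, and targeting guides above 30000 had 0.165 and 0.228, so the wider day 14 spread was found in all 3 classes. Across the guides of the range, the log2 levels of 2 day 0 libraries correlated with r between 0.803 and 0.838, and those of 2 day 14 libraries with r between 0.692 and 0.773. These are correlations across guides, which share the composition of one library pool, and carry no test. No 2 libraries were alike within sampling noise, the chi-square per degree of freedom being 2.16 to 2.62 at day 0 and 4.24 to 5.85 at day 14.

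Most guides up to 30000 changed little in their share of the pool. After each library was scaled on the non-targeting guides, the log2 change from day 0 to day 14 had a median of -0.01 and an SD of 0.168. The spread between replicate libraries alone gives an SD of 0.161. The 5th and 95th percentiles were -0.27 and 0.25, and the 1st and 99th were -0.42 and 0.37. The lowest guide stood at -2.91 and the highest at 1.11. A change below -0.5 was seen for 156 guides (0.521%), below -1 for 21 and below -2 for 5. A change above 0.5 was seen for 52 guides (0.174%) and above 1 for 1 guide.

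The non-targeting guides give the range of change that the assay returns without a target. Their changes had an SD of 0.159 and ran from -0.57 to 0.62. Below the lowest of the 995 non-targeting guides lay 101 guides up to 30000 (0.337%), and above the highest lay 18 (0.0601%). Each limit rests on a single guide, and unchanged guides of a larger class can lie past it. A single non-targeting guide is 0.101% of its class. The 0.0601% was below that share and the 0.337% above it. Past the non-targeting first percentile of -0.38 lay 1.66% of the guides, and past the ninety-ninth percentile of 0.36 lay 1.12%. Changes below -0.5 were seen for 2 non-targeting guides (0.201%) and for 454 of all 40070 guides of the table, beside the 156 given above. Changes above 0.5 were seen for 1 non-targeting guide (0.101%) and for 0.175% of all guides, so the 0.174% of the guides up to 30000 was at the level of the table. Targeting guides above 30000 had an SD of 0.302, with 296 of them (3.25%) below -0.5 and 17 (0.187%) above 0.5.

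In limma's moderated test over all 40070 guides, with Benjamini-Hochberg adjustment and an adjusted p under 0.05 as the call, 66 guides up to 30000 were lower at day 14. That is 0.22% of the guides, beside 0.711% called lower over the whole table. Another 18 were higher, which is 0.0601%, beside 0.0624% over the whole table. With the replicate number added to the fit, 84 guides up to 30000 were lower and 40 higher. Of the 995 non-targeting guides 0 were called in the main test, with 41 at an unadjusted p under 0.05. Among the 29968 guides up to 30000, 1488 had an unadjusted p under 0.05, beside 2337 of all 40070. Among unchanged guides a share of about 0.05 reaches such a p, and 1488 of 29968 was near that share. These counts are therefore not lists of changed guides. The median standard error of a log2 change was 0.151, with 0.128 and 0.191 as its 5th and 95th percentiles.

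How many guides were called changed when a library was left out. The count of lower guides was 33, 35 and 34 without day 0 replicate 1, 2 or 3. Without day 14 replicate 1, 2 or 3 it was 57, 78 and 62. The count of higher guides was 7, 9 and 7 without the day 0 libraries in turn, and 16, 43 and 21 without those of day 14. A criterion that needs no model is full separation of the days. All 3 day 14 signals lay below all 3 day 0 signals for 1630 guides (5.44%, against 6.32% of the whole table). They lay above them for 1465 (4.89%, against 4.73%). With similar shares in both directions, meeting this criterion does not mark a guide as changed. The median change of those 1630 guides was -0.269. The median of the 1465 was 0.2494. All 66 lower and all 18 higher guides met this criterion.

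The 66 lower guides changed by -0.54 to -2.91 with a median of -0.82. A fall of more than 1 on the log2 scale was reached by 21 of them, while 14 fell by no more than 0.7. Their starting level, which is itself part of the change, ran over percentiles from 2.33 to 97.7 among the guides up to 30000. The median percentile was 47.3. Of the 66, 37 began below the median. The 18 higher guides changed by 0.46 to 1.11 with a median of 0.62, and 15 of them by no more than 0.7. They started at percentiles from 1.01 to 97.9, with a median of 46.4, and 10 began below the median.

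The deepest loss was that of UID_018673. Its signal was 239.9, 289 and 225 at day 0 and 24, 56.3 and 27.4 at day 14, a change of -2.91 ± 0.26 (log2, SE) or a fall of 7.51-fold. In reads the guide went from 191, 249 and 235 to 18, 52 and 43. The second of these day 14 libraries was more than 1 log2 unit above the others' median, and all 3 lay far below every day 0 library. UID_018673 is the first guide of its set. The other 7 guides of the set had a mean change of -0.186, with 6 below 0 and none called, and the next lowest, UID_018675, stood at -0.44.

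UID_002628 and UID_002626 belong to one set and gave the next 2 losses in depth. UID_002628 had signals of 159, 177 and 191 at day 0 and 38, 35.1 and 19.4 at day 14, a change of -2.57 ± 0.278. UID_002626 had signals of 206, 243 and 244, then 45.7, 46.8 and 51.4, a change of -2.27 ± 0.209. For both, even the highest day 14 library lay far below the lowest day 0 library. A further guide of that set, UID_002631, went from 174, 231 and 194 to 64.8, 94.6 and 79 and changed by -1.34 ± 0.199.

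The next losses came from guides in other sets. UID_006028 had signals of 225, 157 and 207 at day 0 and 27.8, 54.2 and 53.8 at day 14, a change of -2.17 ± 0.253. Its day 14 replicate 1 was the lowest of the 3, and the groups did not overlap, as the choice of named guides required. A neighbour in its set, UID_006029, stood at -0.87, and 1 of the other 7 guides was called. UID_020310 went from 199, 156 and 168 to 54.6, 40.4 and 60.6, a change of -1.76 ± 0.23. UID_006618 went from 247, 213 and 237 to 54.6, 117 and 63.7, a change of -1.65 ± 0.216. Of these values the replicate 2 library of day 14 was the highest for UID_006618 and the lowest for UID_020310.

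UID_007065 fell without its set. It had 284, 268 and 241 at day 0 and 76.3, 55.3 and 61.8 at day 14, a change of -2.05 ± 0.191. The other 7 guides of its set had a mean change of 0.0226, with 3 below 0 and 4 above. The lowest of them, UID_007070, stood at -0.19. The set as a whole was still called lower, at -0.24. UID_003132 was likewise alone, with signals of 205, 198 and 223 followed by 117, 60.6 and 85.8 and a change of -1.30 ± 0.204. Of its 7 set mates 6 were above 0, with a mean of 0.0946, and the set was not called.

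UID_013925, UID_008786 and UID_004340 made up the rest of the 12 deepest losses. UID_013925 went from 241, 316 and 242 to 125, 97.8 and 78.4 and changed by -1.43 ± 0.182. UID_008786 went from 232, 206 and 200.4 to 83.9, 67 and 90.1 and changed by -1.42 ± 0.19. UID_004340 went from 215, 192 and 224 to 103, 65.9 and 97.5 and changed by -1.27 ± 0.193. In each the day 14 libraries lay below all day 0 libraries, as the choice of named guides required. All 7 set mates of each guide were also below 0. The set mates' mean change was -0.62 for UID_013925, -0.219 for UID_008786 and -0.227 for UID_004340. At the mild end of the 66 were UID_012559, with 309, 326 and 332 followed by 227, 195 and 248, and UID_012153, with 393, 327 and 303 followed by 217, 241 and 230.2. Their changes were -0.54 and -0.57, and both started from a high level.

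The largest gain was that of UID_000587. Its signal was 267, 202 and 180.3 at day 0 and 483, 514 and 398 at day 14, a change of 1.11 ± 0.139 or 2.16-fold. All day 14 libraries lay well above the highest day 0 library. It shares a set with UID_000592, which went from 247, 311 and 364 to 483, 511 and 439 and changed by 0.65 ± 0.127. The other 6 guides of that set were not called.

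UID_029294 began as one of the scarcest guides, at percentile 1.01 of the day 0 level. Its signal was 124, 92.4 and 109 at day 0 and 260, 181 and 179 at day 14, a change of 0.92 ± 0.186. At day 14 it was still below the median guide in replicates 2 and 3. Its set mate UID_029291 went from 166, 172 and 181 to 263, 269 and 275, a change of 0.63 ± 0.144, with little spread within either day. The day 14 libraries of both guides were all above their day 0 libraries, as the choice of named guides required.

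Another 4 gains completed the 8 largest. UID_019819 went from 229.9, 236 and 153 to 340.4, 347 and 392 and changed by 0.82 ± 0.148, with a low day 0 replicate 3. UID_015052 went from 287, 279 and 251 to 456, 397 and 418 and changed by 0.64 ± 0.121. These guides lie in sets that were called higher. The sets of the next 2 guides were not called. UID_029843 went from 241, 267 and 196 to 388, 442 and 308 and changed by 0.69 ± 0.142. UID_005346 went from 181, 198 and 149.8 to 273, 290.4 and 257 and changed by 0.64 ± 0.149. The mean change of their set mates was 0.0783 and 0.0836.

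Leaving out a library ended the call of some gains. All 12 of the deepest losses stayed called without any single library, and 5 of the 8 gains did not. UID_029294 was at an adjusted p of 0.0734 in limma without day 0 replicate 2 and 0.0922 without day 14 replicate 1. UID_029843 was at 0.143 without day 0 replicate 3, and UID_000592 at 0.141 without day 0 replicate 1. UID_005346 was at 0.0837 and 0.379 without day 0 replicate 1 or 3 and at 0.0562 without day 14 replicate 1. UID_029291 was at 0.13, 0.0968 and 0.0681 without day 0 replicate 1, 2 or 3 and at 0.087 without day 14 replicate 3. The sign of the change was kept in every such fit of limma. The change of UID_029291 was 0.60, 0.63, 0.67 and 0.62 in those 4 fits, beside 0.63 with all libraries. Over the fits that lost the call it was 0.74 to 0.81 for UID_029294 and 0.53 to 0.66 for UID_005346. It was 0.56 for UID_029843 and 0.50 for UID_000592.

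Some called guides shared a set with another called guide. The 66 lower guides lay in 48 sets, with 36 sets holding 1, 9 holding 2, and 1 set each holding 3, 4 and 5. So 30 of the 66 shared a set with another called guide. The 18 higher guides lay in 13 sets, with 8 holding 1 and 5 holding 2, so that 10 shared a set. The higher pairs include the neighbours UID_025438 and UID_025439, with signals of 356, 352 and 317 followed by 499.8, 486 and 429 for UID_025438 and of 304, 323 and 344 followed by 502, 433 and 447 for UID_025439. Their changes were 0.46 and 0.51. In 0 sets were guides called in both directions. The calls come from the contrast that placed the border, and the sets were inferred from the data. No such counts for the whole table are given beside these, so they are a description only.

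Averaging the guides of a set gave a finer measure, with a median standard error of 0.0574. The changes of the 3750 sets ran from -0.98 to 0.45 with an SD of 0.076, where a mean of 8 unrelated guides would have 0.0593. In the same limma test over 4890 sets, 64 sets up to 30000 were called lower (1.71%, beside 3.66% over the whole table). Another 28 were called higher (0.747%, beside 0.675% over the whole table). Without day 0 replicate 1 or 2 the lower sets were 41 and 40, and without day 0 replicate 3 the higher sets were 16. With the median guide of a set in place of the mean the counts were 24 lower and 10 higher, and with set borders moved by 4 numbers they were 36 and 6.

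The 64 lower sets changed by -0.18 to -0.98 with a median of -0.26, and 6 of them by at least 0.5. In 30 of these sets no guide was called on its own, in 22 there was 1, in 9 there were 2, and 1 set each had 3, 4 and 5. Every guide was below 0 in 25 sets, and all but 1 guide in a further 24. The lowest guide of these sets had a median change of -0.65, and the median change of the set's guides was beyond -0.3 in 14 of the 64. These counts describe sets that were called on their mean change and are not independent of it.

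The lowest set began at number 2625 and held 3 of the guides above. The geometric mean signal of its guides was 175, 197 and 196 at day 0 and 94.4, 102 and 92.5 at day 14, a change of -0.98 ± 0.0759. Within it UID_002627 went from 186, 208 and 187 to 81.4, 132 and 137, a change of -0.77, and was the fourth called guide. The rest were nearer to 0, with -0.40 for UID_002629, -0.37 for UID_002630, -0.16 for UID_002625 and 0.06 for UID_002632. UID_002632 gave 155, 133 and 164 at day 0 and 159, 150 and 161 at day 14, and the days overlapped. Guides of 1 set thus ran from losses of more than 2 log2 units to a slight rise in the mean.

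The set from 13921 was lower in a more even way. Its geometric mean was 228, 233 and 215 at day 0 and 133, 149.6 and 128 at day 14, a change of -0.72 ± 0.065. All 8 guides were below 0, and 5 were called. Besides UID_013925 these were UID_013922, UID_013923, UID_013926 and UID_013921, with changes of -1.15, -0.80, -0.79 and -0.78. UID_013922 went from 319, 268 and 222 to 121, 134 and 108. The remaining guides stood at -0.36 for UID_013928, -0.31 for UID_013927 and -0.16 for UID_013924. UID_013924 gave 177, 215 and 136 followed by 196, 119 and 160.1, and its days overlapped.

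In the set from 6617 all 8 guides were below 0 and 3 were called. Its geometric mean was 168, 169.8 and 169 at day 0 and 95.5, 116 and 101 at day 14, a change of -0.70 ± 0.0769. Besides UID_006618, the called guides were UID_006621 at -1.24 and UID_006617 at -0.85. UID_006623 stood at -0.79 without being called. It was scarce at the start, with 68.6, 83.2 and 84, and had 64.8, 27.6 and 52 at day 14, with replicate 2 the lowest. The set just before it in number was also called lower. Such adjacency was found for 2 pairs of lower sets and for 0 pairs of higher sets.

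A further 3 sets passed -0.5. The set from 16065 went from 205, 186 and 187 to 138, 119 and 146, a change of -0.53 ± 0.0689, with all 8 guides below 0. The set from 17329 went from 201, 195 and 184 to 124, 141 and 140.3, a change of -0.52 ± 0.0682, also with all 8 below 0. Each had 2 called guides. The set from 18673 reached a like value, -0.53 ± 0.0652, through its first guide: it went from 198, 218 and 204 to 142, 146 and 143, with 1 called guide and the mean of the others at -0.186.

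The 28 higher sets changed by 0.17 to 0.45 with a median of 0.24. No guide was called in 19 of them, 1 in 4 and 2 in 5. Every guide was above 0 in 12 sets and all but 1 in 12 more. The highest guide of these sets had a median change of 0.49. The sets were selected on their mean change, so these counts describe the sets called and are not independent of the call.

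The highest set began at 425. Its geometric mean was 219.8, 226 and 215 at day 0 and 316, 275 and 312 at day 14, a change of 0.45 ± 0.0551. Its 8 guides from UID_000425 to UID_000432 stood at 0.61, 0.47, 0.60, 0.50, 0.47, 0.17, 0.47 and 0.29. UID_000425 and UID_000427 were called. UID_000425 went from 271, 266 and 237 to 468, 344 and 379, and UID_000427 from 205, 194 and 229 to 268, 395 and 303. All 8 guides were above 0, within a range narrower than in the lowest sets.

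The set from 15049 was the second highest. Its geometric mean was 226, 233 and 247 at day 0 and 319.7, 283 and 317 at day 14, a change of 0.38 ± 0.0553. All 8 guides were above 0, from 0.15 for UID_015055 to 0.64 for UID_015052. The other called guide, UID_015056, went from 187, 194 and 194 to 328, 299 and 265, a change of 0.62. UID_015049 stood at 0.57 without a call, with 171, 192 and 217 followed by 297, 232 and 337. Both of these guides were higher in every day 14 library than in any at day 0.

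The set from 585, which holds UID_000587 and UID_000592, went from 259, 259 and 248 to 318, 342 and 316, a change of 0.35 ± 0.0556. Unlike the set from 425 it was uneven. UID_000591 stood at 0.47 and UID_000590 at 0.37, while UID_000585, UID_000586 and UID_000589 stood at 0.04, -0.05 and 0.00. UID_000589 was abundant throughout, with 330, 399 and 367 followed by 289, 409.6 and 414.

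Of the other 3 sets among the 6 highest, 2 held no called guide. The set from 21897 went from 184, 199 and 176 to 227, 228 and 239, a change of 0.32 ± 0.0586, with all 8 guides above 0. The set from 12113 went from 248, 229 and 234 to 306, 291 and 273, a change of 0.29 ± 0.055, with 7 guides above 0. The set from 19817, which holds UID_019819, went from 223, 211 and 203 to 269, 249.9 and 262, a change of 0.30 ± 0.0553, with 7 guides above 0. In all 6 of the highest and all 6 of the lowest sets the day 14 libraries did not overlap the day 0 libraries. These sets were picked as the most extreme on the same contrast, so this is not independent of the pick.

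Sets with all guides on one side of 0 were few. Of the 3718 complete sets, 47 (1.26%) had all 8 changes below 0 and 27 (0.726%) had all 8 above.

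Guides of a set also resembled each other at day 0, a level that enters the change but was not itself used by the rule. Between guides 1 to 7 numbers apart within a set, the mean log2 day 0 levels correlated with r between 0.0732 and 0.0905. Between guides of different sets, 1 to 8 numbers apart, r lay between 0.0013 and 0.0194. For adjacent numbers within a set, r was 0.0765, 0.0733 and 0.0927 in the single day 0 libraries, and for adjacent numbers in different sets -0.00225, 0.0256 and 0.0271. Above 30000 the values for adjacent numbers within a set were 0.0723, 0.0737 and 0.0791. The resemblance was weak throughout, and it was lower across the ends of the runs of 8. The runs were themselves inferred from the data, so this contrast is a description. The changes to day 14 correlated with r of 0.0803 to 0.101 within sets and of -0.00374 to 0.0365 across them. All of these are across guides of one pool, without a test.

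The place of a guide in its set went with its day 0 level. Guides at place 1 had a geometric mean signal of 213.0, 211.7 and 207.0 in the day 0 libraries, and those at place 8 had 221.0, 219.2 and 214.2. Place 8 less place 1 was 0.0531, 0.0502 and 0.0495 on the log2 scale, with a mean of 0.0509 ± 0.0019 (SD, n = 3, exact two-sided permutation p = 0.25, the smallest possible). Place 1 was thus 3.47% lower. Above 30000 the same difference was 0.00771 ± 0.0052 (SD, n = 3). The gap between the ranges was 0.0498, 0.0437 and 0.0361, or 0.0432 ± 0.0069 (SD, n = 3, exact two-sided permutation p = 0.25). It had the same sign in 3 of 3 libraries. The 3 libraries carry the same guide pool, so their spread does not speak of another pool.

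By place 1 to 8, the guides called lower numbered 15, 9, 4, 12, 9, 7, 5 and 5, so that places 1 to 4 held 40 and places 5 to 8 held 26. Changes below -0.5 numbered 26, 23, 21, 20, 18, 15, 20 and 13 over the same places, or 90 against 66. The guides called higher numbered 3, 2, 5, 1, 0, 3, 1 and 3, or 11 against 7. The counts of guides called lower did not fall steadily from place to place. No counts by place for the other guides are given beside these. All of them come from the contrast that placed the border and were not tested.

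A few guides up to 30000 stood out in a single library only. A signal more than 1 log2 unit above the median of its day's libraries was found for 0 guides at day 0 and 15 at day 14. One more than 1 unit below was found for 1 guide at day 0 and 23 at day 14, of which 18 were in replicate 2, 5 in replicate 1 and 0 in replicate 3. The most extreme was UID_018008, with 310, 325 and 282 at day 0 and 1162, 289 and 239 at day 14. UID_017960 had 149, 213 and 181 followed by 186, 714 and 215, and UID_024230 had 112, 161 and 143 followed by 404, 145 and 110.4. UID_028466 had 162, 136 and 122 followed by 177, 471 and 150.3. A library of one infection thus held several times the signal of the other infections at the same day, and none of these 4 guides was called. A loss of the same kind was that of UID_016706, with 98.6, 75.1 and 82.1 followed by 80.1, 24.4 and 107. Of all guides with such a departure, UID_018673 was the only one called.

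The called guides were spread over the whole range of numbers. In successive blocks of 3000 numbers, the guides called lower were 7, 6, 8, 8, 14, 9, 4, 3, 4 and 3, and those called higher 4, 3, 1, 0, 0, 2, 2, 0, 3 and 3. Lower sets were 4, 8, 10, 7, 8, 8, 5, 5, 5 and 4 over the same blocks. Higher sets were 4, 4, 2, 2, 4, 1, 2, 3, 5 and 1. Every block had lower guides, with the highest count between 12001 and 15000 and the lowest counts in the 4 blocks above 18000. Between 29001 and 30000, just inside the border, 998 guides held 1 lower and 3 higher, and the changes ran from -0.61 to 0.92. Between 30001 and 31000, just outside it, 994 guides held 14 lower and 0 higher, and the changes ran from -2.93 to 0.41. Of the 125 sets in each of these stretches, 1 was lower and 1 higher inside, and 7 were lower and 0 higher outside. The border was placed on this same change, so the contrast across it only describes that choice and was not tested.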

How the data were processed

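Guide abundance was read from genomic DNA of 6 HfCas13d HAP1 libraries, 3 per day. The deposited values are a normalised signal per guide, and how the authors normalised is not given in the sources used here. Bowtie 1.1.2, cutadapt 1.13 and the GRCh38 build are listed in the submitters' processing notes. With 1 subtracted, the values of a library were whole multiples of a single step, within 0.01 of a read, which gave the reads and depths printed. Lines without a guide ID (48) were left out. A minimum mean signal of 10 removed 0 guides.

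Log2 signal, with no pseudocount, was scaled per library on the non-targeting guides (mean after trimming 30% from each side) and fitted with limma 3.58.1 in R 4.3.3 (lmFit, eBayes with a trend), day 14 against day 0. P-values were adjusted by Benjamini-Hochberg over all 40070 guides, or over 4890 sets with at least 6 guides, with 0.05 as the threshold. They measure the spread between the infection replicates of one screen. The fit was also run on simulated reads that had the same added spread at both days. The real spread was wider at day 14, so that run checked the code and does not speak for the calls. Differences at day 0 were tested by exact sign flips over libraries. Named guides are the 12 lowest and 8 highest called guides whose days do not overlap, and named sets the 6 lowest and 6 highest called. Other guides, such as single-library departures, were picked after their values were seen. The guides described and these lists were chosen with earlier results of these data known. Alternatives were the scaling, pseudocount, minimum signal, a robust fit, voom on recovered reads, a fold minimum, the set borders and summary, the replicate number as a block, and leaving out each library.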

Additional observations from a re-analysis of the deposited data

How the results depend on the processing

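Signs were kept by all 20 named guides and 12 named sets in 240 alternative values of guides and 132 of sets, of which 11 guide values lost their call. With a minimum log2 change of 1, 21 guides were lower and 1 higher, and 0 sets were lower and 0 higher. The median guide of a set gave 24 lower and 10 higher sets, and set borders moved by 4 numbers gave 36 and 6. Leaving out a library gave 33 to 78 lower and 7 to 43 higher guides, and 40 to 69 lower and 16 to 29 higher sets. The day 0 difference from guides above 30000 was 0.00732 with means. The replicate block gave 84 lower and 40 higher guides and 73 lower and 32 higher sets. Deviations from the mean of a day correlated at 0.0762, 0.113 and 0.1074 between day 0 and day 14 libraries of the same number. Between different numbers r was at most -0.0175, so 6 of 6 libraries correlated best with their own number. The correlations were weak, and the main fit leaves this pairing out. The smallest changes of guides that were called were -0.54 and 0.46. Changes of guides near the median standard error of 0.151 were not detectable at this depth and number of libraries. Some much larger ones were not called either, such as UID_006623 at -0.79.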
